A study of Mus musculus with 30 samples.

Results

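Thyroid glands of male mice of 8 months were compared between FAD4T and wild-type (WT) animals by poly(A) RNA sequencing. The comparison uses 6 of the 30 libraries of the series, chosen by their titles as the 3 FAD4T and the 3 WT libraries of males of that age. All mice were C57BL/6, and the design text counts 3 mice in each group. The labels do not state which alleles or transgenes the name FAD4T covers, nor any promoter, and they mention no treatment. FAD4T is the only labelled difference between the 2 groups, and the question addressed is how thyroid transcripts differ with that genotype in older males. The remaining libraries are females of 8 months, both sexes at 2 months and an ageing set of WT males. The labels give neither litter nor dissection day for these animals. Each p-value therefore rests on how much the libraries vary, technical variation included.

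The thyroid follicle makes thyroglobulin, iodinates it with the help of hydrogen peroxide from dual oxidases, and releases thyroid hormone after taking the protein back up and digesting it. Thyrotropin drives this through its receptor and cyclic AMP. Between the follicles lie the calcitonin-producing C cells. Next to or on the gland lie the parathyroids, cervical fat with white and brown adipocytes, strap muscles and, lower down, the thymus, so a dissected gland can carry transcripts of all of these.

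Between 17307491 and 20256049 counts fell on genes in each of the 6 libraries. Tg, the gene of thyroglobulin, took 16.0% to 19.9% of the counts in FAD4T and 18.0% to 21.4% in WT. Levels of gene lists are given as the mean of log2(CPM + 1), where CPM (the usual scaling of a count by sequencing depth) uses the normalised library total. Genes of hormone synthesis had a level of 6.94 to 7.30 over the 6 libraries. C cell genes lay at 6.40 to 6.71 in FAD4T and 6.08 to 6.29 in WT. The markers of the labelled tissue were therefore present in all 6 libraries. Muscle, parathyroid and thymus transcripts differed between single mice of one genotype. The level of the fast muscle genes was 10.28, 6.19 and 2.75 in FAD4T and 9.28, 5.78 and 6.32 in WT, so number 1 of each group held most muscle transcripts. Pth, the parathyroid hormone gene, lay at 8678, 8684 and 65.0 CPM in FAD4T and at 130, 17333 and 71.4 CPM in WT. Parathyroid transcripts were therefore abundant in 3 of the 6 libraries. Thymocyte genes had a level of 3.30 in FAD4T number 1 and of 0.67 to 0.84 in the other 5.

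**Figure D1:**
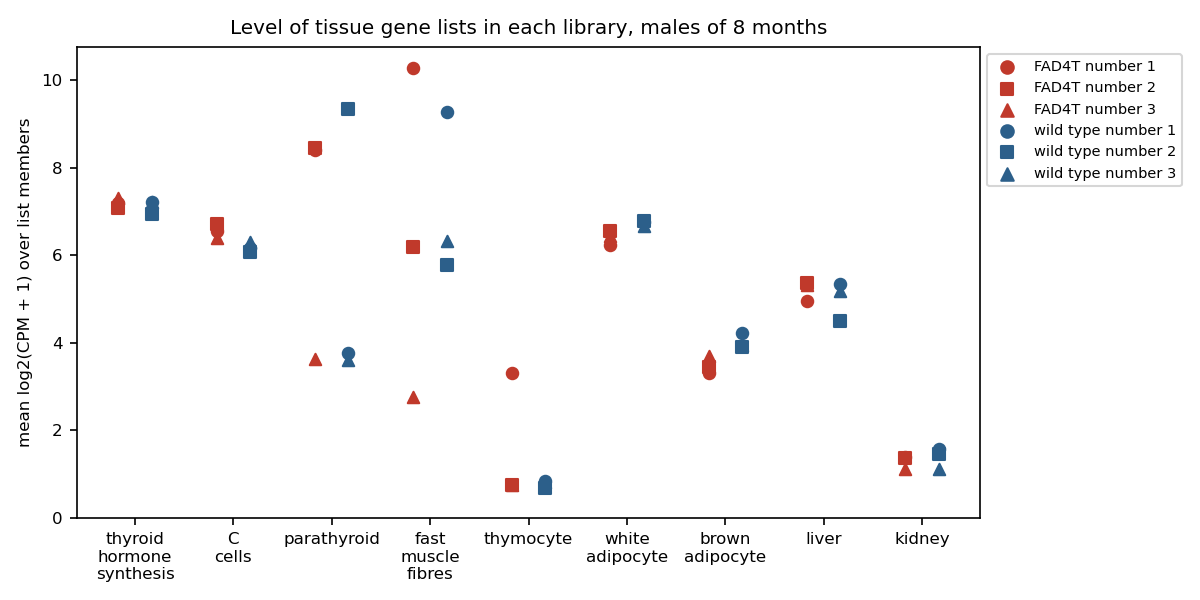
Level of 9 tissue gene lists in each of the 6 libraries, as mean log2(CPM + 1) over the members of a list (vertical axis). Colour gives the genotype and symbol shape the title number. Fast muscle spreads from 2.75 to 10.28, parathyroid from 3.61 to 9.34, and thymocyte genes stand out in FAD4T number 1 alone. Both adipocyte lists lie lower in the 3 FAD4T libraries than in the 3 WT libraries, and the C cell list lies higher.

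Of 18493 genes tested with edgeR's quasi-likelihood test, 0 passed an adjusted p of 0.05 between FAD4T and WT males of 8 months, and the adjusted p was 1 for every gene. DESeq2 also called 0, with 438 genes at an unadjusted p under 0.05. With edgeR and no adjustment, 335 genes (1.81% of those tested) had a p under 0.05, fewer than the 925 that a uniform spread of p-values gives, with 193 higher (1.04%) and 142 lower (0.768%) in FAD4T. In 1984 genes (10.7%) all 3 FAD4T libraries lay on one side of all 3 WT libraries, 975 above (5.27%) and 1009 below (5.46%). Below, such groups are called separate. The median log2 fold change over all genes was 0.01, with a median standard error (SE) of 0.27. The 95% interval of the fold change lay within a log2 of 1 on either side of 0 for 10924 of the 12035 genes with a mean of at least 5 CPM in either group (90.8%). The genes below are given as measured values, and none of them passed the test.

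Genes of hormone synthesis lay at like levels in both genotypes. Of 12 tested, 5 had a log2 fold change above 0 and 7 below, with a median of -0.01, and 1 (8.33%) had an unadjusted p under 0.05. Tg (chromosome 15, 66670753 to 66850721, GRCm38) lay at 166701, 182576 and 209540 CPM in FAD4T and 211678, 186313 and 229974 CPM in WT. The ranges overlap, and the log2 fold change of -0.17 (SE 0.55) has a 95% interval from -1.32 to 0.98. For Slc5a5, the sodium-iodide symporter that loads the follicle cell with iodide, the values were 460, 311 and 535 CPM against 427, 251 and 384 CPM (log2 0.30, SE 0.58). Slc26a4, the anion exchanger pendrin, was at most 0.543 CPM in any library. Iyd, the deiodinase that recovers iodide, stood at 1043 ± 121 CPM in FAD4T and 987 ± 140 CPM in WT (mean ± SD, n = 3 libraries here and below).

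Of the 4 genes of hydrogen peroxide supply in this list, Duox1, Duox2 and Duoxa2 lay above 0 and Duoxa1, the maturation factor of Duox1, at a log2 of -0.08. Duox2, the main dual oxidase, lay at 73.8, 66.5 and 68.9 CPM in FAD4T and 64.0, 51.5 and 56.5 CPM in WT. Every FAD4T library was above every WT library, at a log2 difference of 0.28 (SE 0.21, unadjusted p = 0.197). Duox1, the second oxidase, was separate too, at 1.51 to 2.27 CPM against 1.17 to 1.39 CPM. Duoxa2, the maturation factor of Duox2, had values of 73.5, 43.3 and 62.7 CPM in FAD4T and 54.4, 33.9 and 45.1 CPM in WT (log2 0.43, SE 0.20, unadjusted p = 0.0456). Its groups overlap. Of its exon length, 42.8% is shared with Duoxa1 on the other strand, and the counting used no strand, so reads of the 2 genes cannot be told apart there.

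Among the 5 thyroid transcription factors, 4 had small positive differences and Glis3 did not. Glis3, a zinc-finger factor needed for thyroid hormone synthesis, lay at 31.7, 32.2 and 37.6 CPM in FAD4T and 68.6, 69.4 and 60.5 CPM in WT. All 3 FAD4T libraries were well below all 3 WT libraries, with a log2 fold change of -0.97 (SE 0.45, unadjusted p = 0.044). The factors that set follicle cell identity, Pax8, Nkx2-1, Foxe1 and Hhex, had log2 differences of 0.24, 0.28, 0.35 and 0.16, each with overlapping groups. In the thyrotropin receptor and cyclic AMP list, 8 of 14 were above 0 (median 0.03), and 1 had an unadjusted p under 0.05. That was Prkar2b, a regulatory subunit of protein kinase A that adipocytes also use, at 27.8, 50.5 and 48.5 CPM in FAD4T against 63.3, 76.5 and 62.7 CPM in WT (log2 -0.68, SE 0.28, unadjusted p = 0.0243). Tshr, the thyrotropin receptor, ranged from 73.9 to 139 CPM in FAD4T and from 93.7 to 159 CPM in WT.

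Downstream of synthesis, differences were small. The 10 genes of thyroglobulin breakdown, cathepsins and uptake receptors among them, had a median log2 of -0.03, and 0 had an unadjusted p under 0.05. Of 10 tested genes that activate, carry or read thyroid hormone, 6 were above 0, with a median of 0.06. Dio1, a deiodinase, stood at 550, 549 and 727 CPM in FAD4T and 648, 526 and 683 CPM in WT. Dio2, the deiodinase that makes active hormone in brown fat and elsewhere, lay at 4.71, 6.31 and 15.2 CPM in FAD4T and 19.1, 16.0 and 10.8 CPM in WT (log2 -0.80, SE 0.39, unadjusted p = 0.0515). For C cells, 9 of 11 genes were above 0, with a median of 0.19 that was -0.05 without WT number 2, and Calca, the calcitonin gene, lay at 4535, 4554 and 6468 CPM in FAD4T and 4903, 3016 and 5822 CPM in WT.

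Mouse genes linked to Alzheimer's disease models lay at like levels as well. App (chromosome 16, 84954440 to 85173707), the amyloid precursor gene, had 997, 1006 and 1173 CPM in FAD4T and 1090, 823 and 1105 CPM in WT, with a log2 difference of 0.07 and a 95% interval from -0.48 to 0.62. Prnp, the prion protein gene, had 86.0 ± 7.12 CPM against 84.9 ± 10.3 CPM (log2 0.02). Thy1, a T cell surface gene whose promoter is often used in transgenes, stood at 50.5 CPM in FAD4T number 1, the library with thymocyte transcripts, and at 16.4 to 23.7 CPM in the other 5. Reads were counted over the mouse annotation, where a transcript from elsewhere shows up only if it matches a mouse gene. Over the 21 genes of amyloid precursor processing and clearance the median log2 was 0.05, with 11 above 0. In that list 0 genes had an unadjusted p under 0.05. Groups were separate above WT for 1 gene (4.76%, against 5.27% of all genes) and below WT for 3 (14.3%, against 5.46%). Bace1, beta-secretase, was separate above WT at 56.9 to 64.6 CPM against 47.2 to 51.0 CPM, though 15.4% of its exon length overlaps Rnf214 on the other strand. The amyloid-degrading proteases Mme (18.6 to 24.1 CPM against 24.8 to 31.6 CPM) and Ide (78.8 to 96.1 CPM against 96.4 to 102 CPM) were separate below it.

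**Figure D2:**
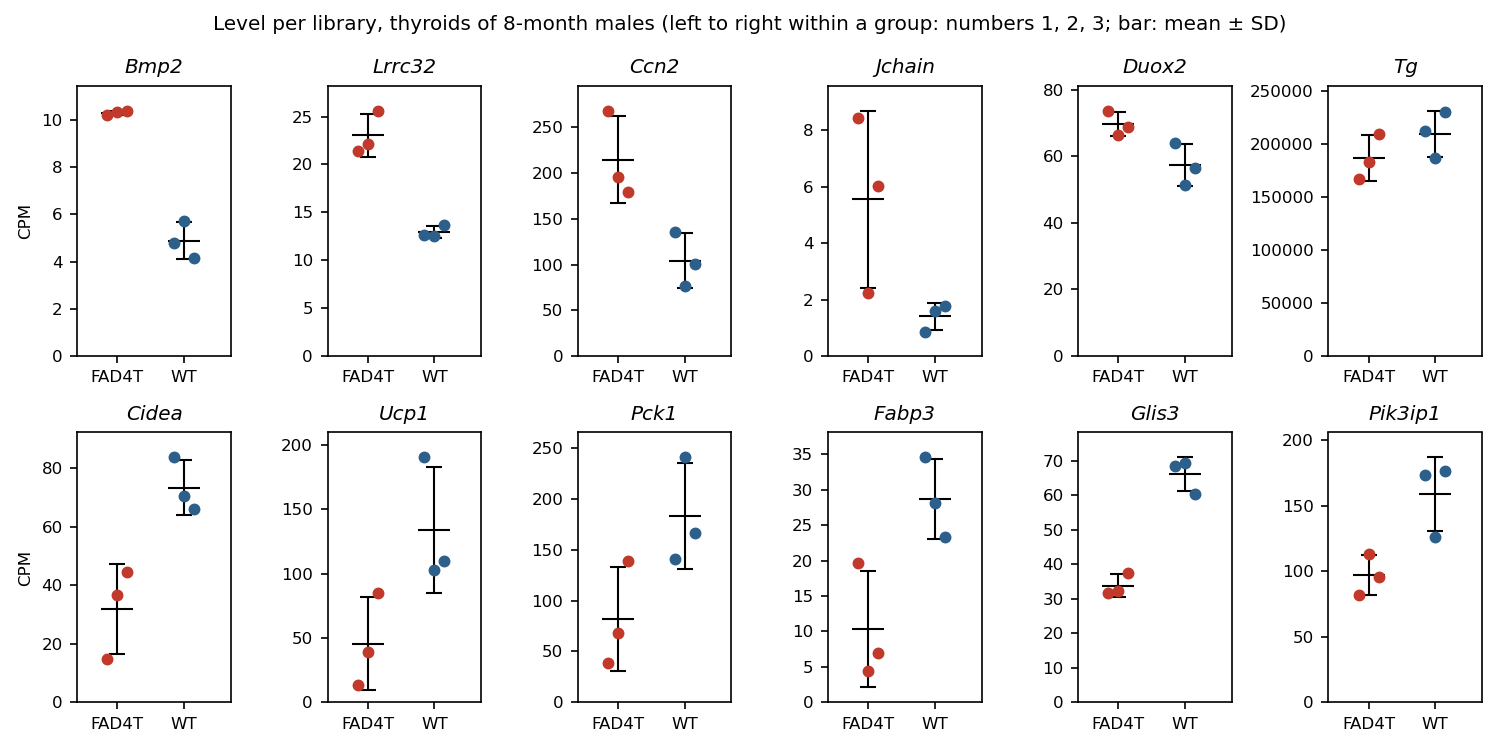
CPM of 12 genes in the 6 libraries, each panel with its own linear axis from 0. Points are libraries, and bars are the group mean ± SD. Bmp2, Lrrc32, Ccn2, Jchain and Duox2 lie higher in all FAD4T libraries, Cidea, Ucp1, Pck1, Fabp3, Glis3 and Pik3ip1 lie lower in all of them, and Tg overlaps.

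The smallest p-value among genes higher in FAD4T belonged to Bmp2 (ENSMUSG00000027358, chromosome 2, 133552159 to 133562885), which encodes a secreted bone morphogenetic protein. It lay at 10.2, 10.4 and 10.4 CPM in FAD4T and at 4.79, 5.71 and 4.16 CPM in WT. The FAD4T libraries were nearly alike and the groups were far from overlapping, at a log2 fold change of 1.08 (SE 0.23, 95% interval 0.59 to 1.56, unadjusted p = 0.000165). The genes of BMP signalling lay on both sides of 0, with 11 of 23 above it and a median of -0.05. Acvr1, a BMP type I receptor, was separate above WT (18.9 to 19.3 CPM against 13.6 to 17.5 CPM). Id1, a transcriptional target of BMP signals, was separate below it (38.7 to 44.8 CPM against 44.9 to 53.2 CPM). Smad7, an inhibitor of BMP and TGF-beta signals, lay at 12.7, 9.14 and 10.4 CPM in FAD4T and 17.4, 13.0 and 14.6 CPM in WT, so it was separate below WT as well (log2 -0.48, SE 0.21, unadjusted p = 0.0308).

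Several genes that present or carry TGF-beta signals lay higher in FAD4T. Lrrc32, the surface anchor that holds latent TGF-beta, lay at 21.4, 22.1 and 25.6 CPM in FAD4T and 12.7, 12.5 and 13.7 CPM in WT (log2 0.83, SE 0.24, unadjusted p = 0.0024). Smad3, which carries the TGF-beta signal to the nucleus, was separate at 71.5 to 102 CPM against 53.6 to 71.0 CPM (log2 0.40, SE 0.16). Tgfb1, a ligand, was separate at 26.1 to 30.2 CPM against 23.2 to 24.9 CPM. Of the 18 genes of this list, 13 were above 0 (median 0.06), 3 (16.7%, against 5.27% of all genes) were separate above WT and 0 below. Ccn2, a matrix gene that TGF-beta induces in many cells, was outside the list. It stood at 268, 196 and 179 CPM in FAD4T and 136, 76.3 and 100 CPM in WT (log2 1.04, SE 0.37, unadjusted p = 0.011), with 23.2% of its exon length shared with a gene on the other strand.

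Other genes with separate groups and the smallest p-values above WT had varied functions. Kpna2, a nuclear import receptor, lay at 34.1 to 40.9 CPM in FAD4T and 20.9 to 27.5 CPM in WT (log2 0.64). Slc25a29, a mitochondrial carrier of basic amino acids, lay at 51.1 to 84.6 CPM against 37.1 to 45.8 CPM (log2 0.68). Dusp7, a phosphatase of ERK kinases, had 44.7 to 70.1 CPM against 34.2 to 43.9 CPM (log2 0.52). Sh3pxd2b, a podosome scaffold, had 34.0 to 38.1 CPM against 20.8 to 28.8 CPM (log2 0.54). Nol4l (log2 0.50), Utp14b (0.91), Usp42 (0.41), Prob1 (0.48) and Fam181b (0.98) were separate too, but 56.8% of the exon length of Fam181b is shared with a gene on the other strand. None of these came near the threshold after adjustment.

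Genes typical of adipocytes were among those below WT in FAD4T. Cidea (chromosome 18, 67343564 to 67367794), a lipid droplet protein typical of brown adipocytes, lay at 14.8, 36.8 and 44.4 CPM in FAD4T and 83.9, 70.5 and 66.0 CPM in WT. All FAD4T libraries were below all WT libraries, at a log2 fold change of -1.20 (SE 0.31, 95% interval -1.85 to -0.54, unadjusted p = 0.00112). Ucp1 (chromosome 8, 83290352 to 83298452), the uncoupling protein that makes heat in brown fat, lay at 13.3, 38.9 and 85.1 CPM in FAD4T and 191, 103 and 109 CPM in WT (log2 -1.55, SE 0.58, unadjusted p = 0.0154). FAD4T number 1 was lowest for both genes, and the groups did not overlap. Ppargc1a, a coactivator of mitochondrial genes, had 37.7, 37.7 and 42.6 CPM against 64.1, 48.1 and 60.9 CPM (log2 -0.55, SE 0.20, unadjusted p = 0.0101). Ebf2, a factor of brown fat identity, had 3.93 to 4.83 CPM against 4.96 to 7.15 CPM (log2 -0.52).

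Over the 15 genes of the brown adipocyte list, 13 were below 0, the median log2 was -0.53, 5 (33.3%, against 5.46% of all genes) were separate below WT, and 4 (26.7%, against 0.768% of all genes) were lower at an unadjusted p under 0.05. The white adipocyte list was lower to a smaller extent, with 14 of 18 below 0, a median of -0.36, 8 (44.4%) separate below WT and 2 (11.1%) with an unadjusted p under 0.05. Pck1, which makes glycerol phosphate for fat storage in adipocytes, lay at 38.8, 68.2 and 139 CPM in FAD4T and 141, 241 and 166 CPM in WT (log2 -1.16, SE 0.50, unadjusted p = 0.0325). Pnpla2, the main triglyceride lipase, lay at 173 to 204 CPM against 221 to 256 CPM (log2 -0.37, unadjusted p = 0.0433). Adipoq, the adiponectin gene, was separate at 45.2, 69.3 and 75.1 CPM against 80.2, 97.7 and 99.7 CPM (log2 -0.55, SE 0.28). The fatty acid carrier Fabp4 (298 to 502 CPM against 548 to 661 CPM), the lipoprotein lipase gene Lpl, the lipid droplet gene Cidec, and Dgat2 and Gpd1 of fat synthesis were separate below WT as well. Lep, the leptin gene, was not, at 7.66, 14.3 and 13.2 CPM in FAD4T and 9.88, 7.47 and 8.15 CPM in WT. Averaged over each list, the FAD4T libraries lay at levels of 6.24 to 6.56 for white and 3.31 to 3.69 for brown adipocyte genes, below the WT libraries at 6.66 to 6.78 and 3.89 to 4.23. List levels were separate for other tissues too, below WT for slow muscle and heart genes and above it for C cell and for B and plasma cell genes. In bulk tissue, fewer cells of a type and less RNA per cell cannot be told apart.

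Of the genes named for a small p or a large difference below WT, 3 handle fatty acids and were in neither adipocyte list. Slc25a20, which carries acylcarnitines into mitochondria, had 43.0, 41.9 and 59.5 CPM in FAD4T and 73.9, 63.7 and 66.0 CPM in WT (log2 -0.50, SE 0.14, unadjusted p = 0.00206). Acadl, an acyl-CoA dehydrogenase, had 144, 155 and 167 CPM against 223, 208 and 206 CPM (log2 -0.45, SE 0.14, unadjusted p = 0.0052). Fabp3, a fatty acid binding protein of muscle and brown fat, had 19.6, 4.49 and 6.90 CPM against 34.6, 28.2 and 23.4 CPM (log2 -1.48, SE 0.52, unadjusted p = 0.0097). In all 3 the groups were separate. Without number 1 of each genotype, the muscle-rich libraries, the median log2 was -0.26 for the white and -0.38 for the brown adipocyte list.

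Upstream sequence is shown for the adipocyte genes with an unadjusted p under 0.05, since several of them are known targets of cyclic AMP in fat. Of these 6 genes, Cidea and Ebf2 are named only and 4 are given, from the RefSeq promoter table on GRCm38.p6, as the 250 bases before the start, 5′ to 3′ on the gene's own strand. The windows are chr8:83290098-83290347 (+ strand) for Ucp1, chr5:51567726-51567975 (- strand) for Ppargc1a, chr2:173152823-173153072 (+ strand) for Pck1 and chr7:141454938-141455187 (+ strand) for Pnpla2. Capitals mark TGACG or its reverse complement CGTCA, the short form of the cyclic AMP response element.
Ucp1: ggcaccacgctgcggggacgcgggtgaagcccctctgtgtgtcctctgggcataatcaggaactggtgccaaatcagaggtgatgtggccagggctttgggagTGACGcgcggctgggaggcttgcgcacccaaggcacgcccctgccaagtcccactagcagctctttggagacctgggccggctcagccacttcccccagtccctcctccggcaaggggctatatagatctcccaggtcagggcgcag
Ppargc1a: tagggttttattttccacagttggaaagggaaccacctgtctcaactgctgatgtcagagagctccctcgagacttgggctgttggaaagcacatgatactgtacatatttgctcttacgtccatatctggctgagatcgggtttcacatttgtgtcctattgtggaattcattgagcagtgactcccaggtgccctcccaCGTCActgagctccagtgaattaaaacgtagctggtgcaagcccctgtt
Pck1: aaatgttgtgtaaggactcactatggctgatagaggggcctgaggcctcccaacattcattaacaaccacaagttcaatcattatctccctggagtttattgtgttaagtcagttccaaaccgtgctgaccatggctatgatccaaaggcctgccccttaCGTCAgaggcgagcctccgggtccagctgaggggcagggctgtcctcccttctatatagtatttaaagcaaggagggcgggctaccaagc
Pnpla2: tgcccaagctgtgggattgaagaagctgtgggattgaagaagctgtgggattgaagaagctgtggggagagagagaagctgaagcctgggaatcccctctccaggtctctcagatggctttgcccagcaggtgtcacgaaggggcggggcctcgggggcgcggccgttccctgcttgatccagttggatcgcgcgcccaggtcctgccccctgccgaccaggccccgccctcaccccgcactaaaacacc
The Ucp1, Ppargc1a and Pck1 windows each held 1 match, at 147 to 143, 49 to 45 and 90 to 86 bases before the start, and the Pnpla2 window held 0. On either strand the short form occurs in 17.8% of 32851 such windows. The full palindrome TGACGTCA, which contains the short form, occurs in 1.55% and was in 0 of these 4, as was TATAAA, which occurs in 12.4% on either strand. These are letter matches and not measured binding sites.

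Further genes below WT came from other processes. Pik3ip1, an inhibitor of PI3 kinase, lay at 82.1, 113 and 95.9 CPM in FAD4T and 173, 126 and 177 CPM in WT (log2 -0.71, SE 0.21, unadjusted p = 0.00291). Ccdc120, which had the smallest p below WT, lay at 36.2 to 40.4 CPM against 54.8 to 68.2 CPM (log2 -0.68, SE 0.16, unadjusted p = 0.000371). Mafk, a small Maf transcription factor, had 33.7 to 37.2 CPM against 45.2 to 49.0 CPM, and Bbc3, the pro-apoptotic gene also called Puma, 8.61 to 10.4 CPM against 14.6 to 15.3 CPM. Nckap5 (log2 -1.04), Rasgef1a (-0.71), Wdr81 (-0.44), Arhgef38 (-0.58) and Klhl29 (-1.01) were separate as well. Dusp8, a phosphatase of JNK and p38 kinases, had 11.6 to 17.2 CPM against 26.0 to 36.1 CPM (log2 -1.09). Actc1, cardiac actin, had the most negative difference among genes with an unadjusted p under 0.05 and at least 5 CPM (log2 -2.39, SE 0.90), but its values of 2.90, 6.31 and 2.49 CPM in FAD4T and 4.18, 22.2 and 35.1 CPM in WT overlap.

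Immune transcripts did not go one way. Jchain, the joining chain of secreted antibodies, lay at 8.45, 2.22 and 6.02 CPM in FAD4T and 0.848 to 1.76 CPM in WT, and Igkc, the kappa light chain, at 18.2, 7.59 and 13.0 CPM against 1.58, 2.99 and 1.76 CPM. Both were separate above WT, with log2 differences of 1.98 (SE 0.75) and 2.61 (95% interval 0.49 to 4.72). Of 8 B and plasma cell genes, 7 were above 0 (median 0.54), but without FAD4T number 1 the median was 0.12. In the antigen presentation list 14 of 15 were above 0, with a median of 0.09 (-0.03 to 0.16 over the alternatives tried). In that list 3 (20%, against 5.27% of all genes) were separate above WT, among them B2m (564 to 639 CPM against 404 to 536 CPM). The list level was 6.65 in FAD4T number 1. It was 6.28 and 6.21 in numbers 2 and 3, within the WT range of 6.13 to 6.34. Interferon-response genes lay the other way, with 14 of 21 below 0 and 3 (14.3%, against 0.768% of all genes) lower at an unadjusted p under 0.05. Their median of -0.13 was -0.01 without WT number 1. Those were the antiviral genes Mx2 (1.61 to 3.02 CPM against 3.46 to 5.33 CPM, log2 -0.95, SE 0.34), Ifit1 (log2 -0.97) and Ifit3 (log2 -0.85), all separate below WT. WT number 1 was highest for all 3, at 16.9 CPM of Ifit1 against 6.46 and 6.33 CPM in the other WT libraries, and without it the log2 was -0.34 for Ifit1 and -0.49 for Ifit3. All 12 thymocyte genes were above 0, with a median of 3.09, but the high values were those of FAD4T number 1. Cd4 lay at 9.17 CPM there and at 0.519 to 0.997 CPM in the other 5, and without that library the list median was -0.47.

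**Figure D3:**
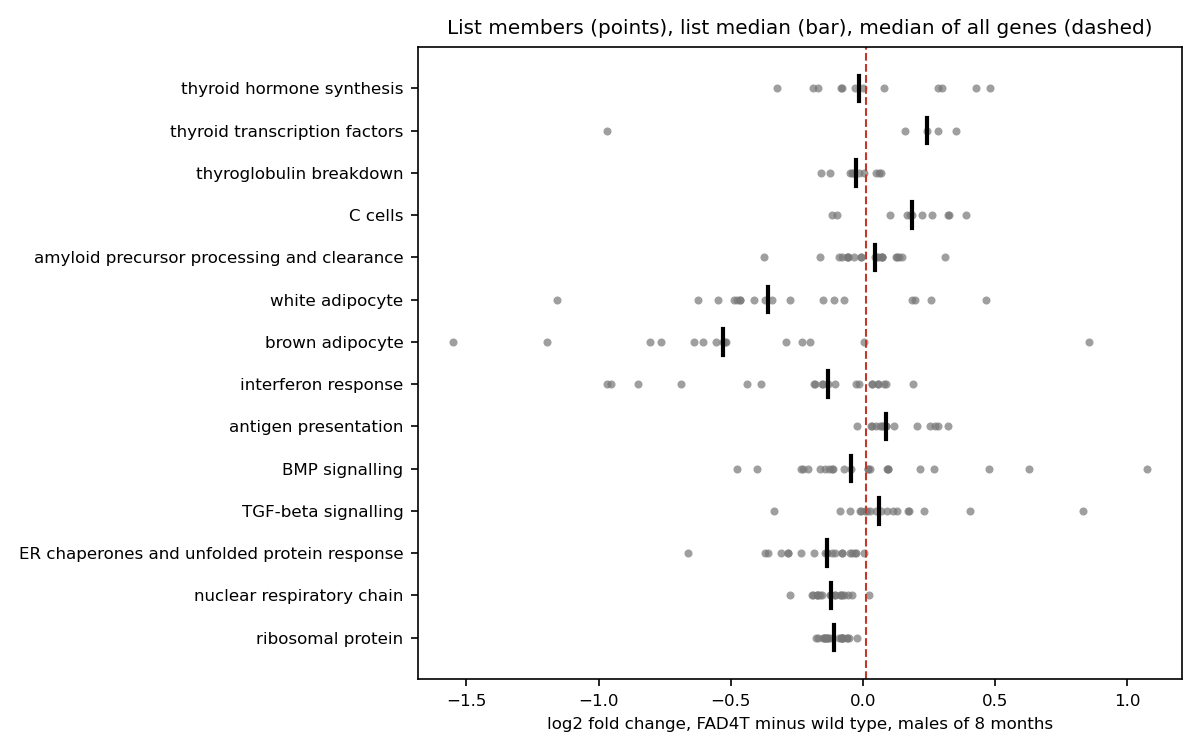
Log2 fold change between FAD4T and WT males of 8 months for the members of 14 gene lists (points), with the list median (black bar) and the median of all genes at 0.01 (dashed line). Of the 14 lists shown, both adipocyte lists lie furthest to the left, at medians of -0.36 and -0.53. The lists of slow muscle (-1.54), heart (-0.97) and cartilage genes (-0.55) had lower medians and are not shown. The lists of ribosomal, respiratory chain and endoplasmic reticulum genes show small shifts shared by nearly all members.

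Housekeeping sets showed small differences shared by most of their members. All 20 ribosomal protein genes were below 0, with a median log2 of -0.11 (-0.15 to -0.05 over the alternatives tried) and 6 (30%, against 5.46% of all genes) separate below WT, and 19 of 20 nuclear genes of the respiratory chain were below 0, with a median of -0.12. Among 20 chaperones and unfolded protein response genes of the endoplasmic reticulum, 19 were below 0 (median -0.14) and 5 (25%) were separate below WT. Those 5 were the stress transcription factors Xbp1 (370 to 439 CPM against 446 to 508 CPM) and Atf6, and the folding genes Dnajb9 (167 to 220 CPM against 260 to 335 CPM, log2 -0.66, SE 0.50), Manf and Hyou1. In these 3 lists, 0 genes had an unadjusted p under 0.05. Single regulators of the clock and of early responses differed more. Nr1d1, the clock repressor also called Rev-erb alpha, had 123, 155 and 132 CPM in FAD4T and 211, 163 and 209 CPM in WT (log2 -0.51, SE 0.20, unadjusted p = 0.0195), while 9 of 17 clock genes were above 0. The early response genes Jun (90.8 to 108 CPM against 102 to 167 CPM, log2 -0.52) and Junb (19.3 to 29.4 CPM against 34.2 to 36.1 CPM, log2 -0.54) were lower, whereas Nr4a3, a nuclear receptor of the same kind of response, lay at 19.1, 5.43 and 8.35 CPM against 4.30, 6.19 and 3.46 CPM (log2 1.23, SE 0.56). The groups of Jun and Nr4a3 overlap, and the log2 of Nr4a3 was 0.57 without FAD4T number 1.

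Muscle and parathyroid genes spread widely within each genotype. All 10 tested fast muscle genes were above 0, with a median of 0.77, but the median was -2.75 without FAD4T number 1 and -0.55 with the title number as a block. Myh1, a fast myosin, lay at 999, 57.5 and 4.10 CPM in FAD4T and 358, 41.7 and 62.1 CPM in WT. Acta1, skeletal actin, lay at 3989, 155 and 13.3 CPM against 1683, 82.0 and 221 CPM. Both genes were highest in number 1 of each genotype and lowest in FAD4T number 3. All 5 tested slow muscle genes were below 0, at low counts and with a median of -1.54 that was -0.50 without WT number 3, and Myh7, the slow myosin, lay at 0.277 to 0.415 CPM in FAD4T and 0.640 to 1.39 CPM in WT. Chga, the secretory granule gene of C cells and parathyroid, followed Pth, at 8737, 7855 and 103 CPM in FAD4T and 144, 17868 and 114 CPM in WT. Smtnl2, with a log2 difference of 1.04 (SE 0.40), was highest in FAD4T number 1 at 219 CPM and overlapped between groups. Serpina6, the liver-made cortisol carrier, had a log2 difference of 3.60 (SE 1.41), at 6.22, 12.8 and 0.830 CPM against 0.606, 0.427 and 0.586 CPM. Alb, the albumin gene of liver, lay at 274, 429 and 344 CPM in FAD4T and 322, 157 and 273 CPM in WT. Both genes were highest in FAD4T number 2 and lowest in WT number 2. Unlike Serpina6, Alb was higher in WT number 1 than in FAD4T number 1. The part of muscle, thymus, liver and parathyroid transcripts in the other differences was not tested.

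The difference between genotypes was then set against that in males of 2 months, which shares no library with it. In the interaction of genotype and age, edgeR called 0 of 18493 genes, with a smallest adjusted p of 0.735, and 922 (4.99%) had an unadjusted p under 0.05. DESeq2 called 16, and Cidea was the only one of them on the adipocyte lists (interaction log2 -1.89, DESeq2 adjusted p = 0.0489). The other calls had extreme interaction log2 values, from -17.47 to -14.68 or, for Obp1a and Ighg3, 17.5 and 33.52. Those below 0 included Otc, Serpina10, Kng1, Mbl1, Mbl2, Cyp2c29, Cyp2c37 and Akr1c6. The level of the liver list was 0.76 to 1.26 in males of 2 months and 4.49 to 5.37 in males of 8 months. The part of liver transcripts in these calls was not tested. With edgeR the interaction of Cidea was -1.89 (SE 0.44, unadjusted p = 0.00038). In males of 2 months, Cidea lay at 39.3, 88.2 and 45.3 CPM in FAD4T and 33.9, 40.5 and 32.4 CPM in WT, so the FAD4T mean was the higher one there, with overlapping groups. Of the white adipocyte genes 7 of 18 (38.9%), and of the brown ones 4 of 15 (26.7%), had an interaction at an unadjusted p under 0.05, against 4.99% of all genes, and all of these were negative. The list medians at 2 months were 0.42 and 0.24, with 16 of 18 white and 9 of 15 brown genes above 0. The negative interactions included Cox8b, a brown fat and muscle subunit of cytochrome oxidase (interaction -2.15, SE 0.58), Pck1 (-2.22, SE 0.71), Fabp4 (-1.34, SE 0.43) and Adipoq (-1.27, SE 0.40).

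Numbers 2 and 3 of the FAD4T males of 2 months stood apart from the other libraries of that age and sex. Their thymocyte levels were 5.31 and 3.37, against 0.93 in number 1 and 0.75 to 0.81 in WT of that age, and Tg took 8.86% and 6.68% of their counts, against 15.2% and 12.1% to 21.1%. The thymocyte list median at 2 months was 5.72. Without both libraries, a choice made after seeing the data that leaves 1 FAD4T library of 2 months and assumes that it varies like the other groups, 0 of 18 white and 1 of 15 brown adipocyte genes had an interaction at an unadjusted p under 0.05, against 1.78% of all genes. The 2-month medians were then -0.04 and -0.13. For Cidea the interaction was -1.34 (SE 0.46, unadjusted p = 0.00905), for Cox8b -1.12 (SE 0.63), for Pck1 -1.62 (SE 0.86), for Fabp4 -0.51 (SE 0.47) and for Adipoq -0.55 (SE 0.41). The part of thymus cells in the age differences was not tested.

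**Figure D4:**
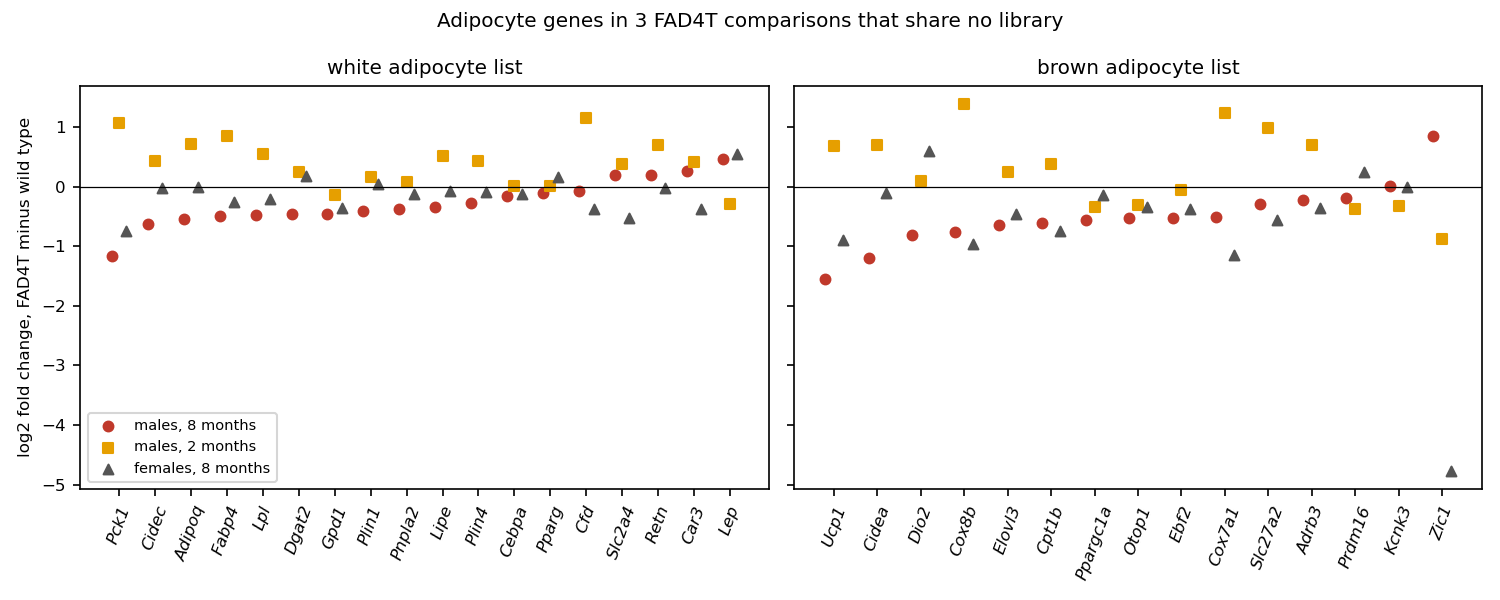
Log2 fold change between FAD4T and WT for each white (left) and brown (right) adipocyte gene in males of 8 months (circles), males of 2 months (squares) and females of 8 months (triangles). With all libraries, most squares lie above 0 and most circles below it, as for Cidea at 0.69 and -1.20. Most triangles lie below 0 too, with 5 of 18 above it for white genes and 2 of 15 for brown genes.

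Interferon-response genes differed in sign between the ages. Of 21, 10 (47.6%, against 4.99% of all genes) had an age interaction at an unadjusted p under 0.05 with all libraries. The list median was 0.50 in males of 2 months against -0.13 at 8 months. At 2 months the medians of thymocyte (5.72), cell cycle (1.84) and B and plasma cell genes (1.31) were above 0 too. Without the thymus-rich FAD4T numbers 2 and 3 of that age, the interferon median at 2 months was 0.27. The median interaction of that list was then -0.43, against -0.54 with all libraries. With 1 FAD4T library of 2 months left, that fit cannot show whether the age difference of this list holds. Mx2 lay at 4.64, 4.73 and 6.78 CPM in FAD4T and 3.40, 1.98 and 2.56 CPM in WT at 2 months (interaction -1.97, SE 0.48, unadjusted p = 0.000503), and its interaction was -1.76 (SE 0.57) without those 2 libraries. Positive interactions at small p included P2ry1, a receptor for ADP (0.89, unadjusted p = 0.000737), and Angpt2, an antagonist of the Tie2 receptor (1.32, unadjusted p = 0.0013). For Bmp2 the interaction was 0.86 (SE 0.33, unadjusted p = 0.0158), or 0.56 (SE 0.40) without the same 2 libraries. Its 2-month values of 11.8, 8.51 and 8.44 CPM in FAD4T and 7.66, 8.50 and 8.64 CPM in WT overlap. Synthesis genes had 0 of 12 at an unadjusted p under 0.05.

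Against females of 8 months, edgeR called 0 genes for the interaction of genotype and sex, with a smallest adjusted p of 0.46. With edgeR, 369 genes (2%) had an unadjusted p under 0.05. DESeq2 called 9, with interaction log2 values of 7.81 for Umod, 6.85 for Slc34a1 and 21.35 to 28.18 for the others. Those others were Mup5, Mup4, Rag1, Lcn3, Lcn11, Lipf and Gm12240. Umod and Slc34a1 are on the kidney list, and Rag1 is on the thymocyte list. Among genes of at least 5 CPM, the smallest p-values in edgeR included Myl2, Kap, Dmbt1, Obp2a, Kirrel, Meaf6, Nat10 and Pdcd11. Umod, a kidney tubule gene, lay at 1.14 to 2.42 CPM in all 6 male libraries, at 1.73 to 5.37 CPM in WT females and at 0 CPM in the 3 FAD4T females. Kap, an androgen-regulated kidney gene, lay at 11.5 to 32.1 CPM in the 6 males, at 9.33, 1.99 and 0.0679 CPM in WT females and at most 0.0753 CPM in FAD4T females (interaction 5.98, SE 1.63, unadjusted p = 0.00233). Myl2, a slow muscle and heart gene, lay at 1.44 to 22.2 CPM in WT females against 0 to 0.14 CPM in FAD4T females, and in males at 2.00, 1.44 and 3.40 CPM in WT against 1.15, 0.886 and 0.311 CPM in FAD4T. Of fast muscle genes 8 of 10, and of kidney genes 5 of 8, had an interaction at an unadjusted p under 0.05. Adipocyte genes had 0 of 18 white and 2 of 15 brown ones, Cidea (-1.10, unadjusted p = 0.022) and Dio2 (-1.41, unadjusted p = 0.0179). In females of 8 months 5 of 18 white and 2 of 15 brown adipocyte genes were above 0, at list medians of -0.10 and -0.37. The male counts above 0 were 4 and 2, so both lists lay mostly below 0 in both sexes.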

How the data were processed

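The deposited values were raw counts per gene and library. Per the file headers, the counts were made with featureCounts 1.6.0 on paired reads (-p), with no strand option, against Ensembl release 88 on GRCm38, from alignments whose names carry STAR. Per the submitters' processing notes, the study also used GRCm39, StringTie 1.3.4d, HISAT2 2.0.4 and cutadapt 1.9, with edgeR and DESeq2; gene models and coordinates here follow the headers.

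Each library is 1 GEO sample, grouped by its title. Of 50686 genes, 50376 had a symbol. The others were kept in the fit and were left out only from the choice of named genes. The 24 libraries of both genotypes, sexes and ages (8 groups of 3) were fitted together, so that the spread rests on 16 residual degrees of freedom, and the 6 libraries of the ageing set were not used here. edgeR 4.0.16 (R 4.3.3) was run with filterByExpr (minimum count 10), TMM normalisation and the quasi-likelihood test, with Benjamini-Hochberg adjustment over all genes and a threshold of 0.05. Fold changes used a prior count of 0.125, and intervals are at 95%. Both interactions came from the same fit. The 24 libraries held 14083958 to 20256049 counts. The 6 libraries compared held no identical pair.

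The members of the comparison, the 39 gene lists (499 genes, 492 tested) and the named genes were chosen with earlier results of these data known. Named genes were those with separate groups and the smallest p (up to 12 in each direction), the largest fold changes at an unadjusted p under 0.05 (up to 6), a set of thyroid, amyloid and tissue marker genes, up to 4 members of a list by p, and up to 4 per direction of an interaction, at a mean of at least 5 CPM; not all of these are printed, some being not reported here, and other members of the lists and Mmp3 were named after their values were seen.

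Libraries with the same title number deviated together from their group means (r = 0.370, 0.373 and 0.471 for numbers 1, 2 and 3). For unlike numbers r was -0.327 to -0.0798. Deviations from a mean of 3 libraries sum to 0, so these negative values follow in part from the positive ones. The labels state no pairing, and whether the animals were paired was not tested. The alternatives were DESeq2 1.42.0, DESeq2 size factors, no filter, the compared groups alone, 1 surrogate variable from sva 3.50.0, the number as a block and each library left out in turn.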

Additional observations from a re-analysis of the deposited data

How the results depend on the processing

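Between FAD4T and WT males of 8 months the count of called genes stayed at 0 under every alternative tried except 1. Without number 1 of each genotype, an alternative chosen after seeing the data, edgeR called 1 gene, the matrix protease gene Mmp3 (log2 -3.25, adjusted p = 0.0150), which in all 6 libraries lay at 11.0, 0.831 and 0.882 CPM in FAD4T and 1.64, 5.07 and 11.4 CPM in WT. Genes at an unadjusted p under 0.05 numbered 163 to 1071 over the alternatives, and the smallest adjusted p ran from 0.0150 to 1. For the age interaction DESeq2 called 16 genes and the other settings 0, the one without the thymus-rich libraries of 2 months included. For the sex interaction DESeq2 called 9 genes, the fit with no filter on low counts 2 and the other settings 0. The cause of these differences was not tested. The median of the white adipocyte list ran from -0.43 to -0.25 and that of the brown list from -0.66 to -0.38.

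With the replicate block, 0 genes were called, and the block changed no call in either interaction. Directions turned under the block for Acta1 (-0.25), Myh1 (-0.32), Chga (0.85) and Pth (0.95), and, in the 6 libraries alone with the block, for Acta1 (-0.24), Myh1 (-0.28), Chga (0.86) and Pth (0.95). A surrogate variable turned Chga (0.49), Dio1 (0.063) and Pth (0.53). With each library left out in turn, log2 fold changes crossed 0 for Acta1 (-2.98 to 3.19), Myh1 (-2.32 to 2.77), Pth (-0.59 to 5.85), Chga (-0.69 to 5.43), Cd4 (-0.51 to 2.58), Mmp3 (-2.80 to 0.33), Thy1 (-0.022 to 0.80), App (-0.052 to 0.15), Calca (-0.049 to 0.39), Dio1 (-0.17 to 0.052), Iyd (-0.033 to 0.15), Kap (-0.45 to 0.22), Prnp (-0.043 to 0.12) and Tshr (-0.31 to 0.10).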

Other observations

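Genes of cholesterol and fatty acid synthesis, which adipocytes and other cells use, lay slightly above WT in FAD4T males of 8 months, with 15 of 18 above 0 and a median log2 of 0.15. Srebf1, a master regulator of this pathway, had 196, 209 and 184 CPM in FAD4T and 165, 175 and 159 CPM in WT (log2 0.24, SE 0.14, unadjusted p = 0.109). Hmgcs1, an early enzyme of cholesterol synthesis, had 50.5, 52.8 and 52.4 CPM against 50.1, 46.3 and 44.1 CPM. Both were separate above WT, unlike the lipid storage genes of the adipocyte lists, which lay below it. The median of the synthesis list in males of 2 months was -0.22.

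Proliferation genes lay above WT in 13 of 16 cases, with a median log2 of 0.94 that was -0.01 without FAD4T number 1. Mki67, a marker of cycling cells, had 18.9, 3.38 and 3.94 CPM in FAD4T and 2.67, 2.51 and 3.87 CPM in WT, so the high value was that of FAD4T number 1, the library with thymocyte transcripts. Rrm2, a ribonucleotide reductase subunit, was separate at 7.66, 1.55 and 1.50 CPM in FAD4T against 0.545, 1.33 and 0.997 CPM in WT (log2 1.88, SE 0.83, unadjusted p = 0.0342), and its log2 was 0.66 without FAD4T number 1. The part of thymus cells in these values was not tested.

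Stromal lists showed little difference. Of 15 endothelial genes 12 were above 0 (median 0.16), of 14 collagen genes 11 (median 0.10), and of 14 macrophage genes 10 (median 0.08), while 9 of 11 Schwann cell genes were below 0 (median -0.09). The 13 genes of the mitochondrial genome had a median of -0.03 and the 10 heat shock genes of -0.02.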
